A study of Rattus norvegicus with 16 samples.

Results

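The expression of 6 AP-1 and immediate early response genes in bulk RNA-Seq was followed through the kidneys of rats with DOCA-salt hypertension. The members were taken by their Ensembl gene IDs, and they are 6 of the 32623 IDs in the tables. A symbol could be paired with 5 of the IDs: Jun (ENSRNOG00000026293), Junb (ENSRNOG00000042838), Egr1 (ENSRNOG00000019422), Atf3 (ENSRNOG00000003745) and Myc (ENSRNOG00000004500). The remaining ID, ENSRNOG00000008015, could not be paired and is given by its ID alone. Each symbol was found by matching the TPM values (transcript abundance per gene, scaled for length) of 7 libraries, to 2 decimals, between the deposited table and a gene table that came with the study, which holds genes called between DOCA-treated and control rats. A member that has a symbol here was therefore already known to differ between these groups in these libraries.

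The data comprise 16 libraries of polyadenylated RNA from whole kidneys of male Sprague-Dawley rats, 4 in each of 4 groups. The labels give 6 weeks under age for all of them. The study describes its bulk libraries as coming from the later of its time points, counted from the start of the DOCA injections. The label is therefore read here as time since that start, not as the age of the rats. Control rats had a sham operation, oil injections and tap water. The other 3 groups had the left kidney removed, weekly deoxycorticosterone acetate (DOCA, a precursor of mineralocorticoid hormones) and salt in the drinking water, and received by gavage vehicle (the DOCA group), finerenone, or spironolactone. Finerenone is a nonsteroidal and spironolactone a steroidal blocker of the mineralocorticoid receptor. Every comparison with control thus covers the operation, DOCA and salt together, and in the drug groups the drug as well.

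Immediate early genes are transcribed within minutes of a growth factor, cytokine or stress signal and need no new protein for it. AP-1 is a family of dimeric basic leucine zipper factors built from Jun, Fos and ATF proteins, which bind DNA and switch on genes of proliferation, inflammation and matrix production. In the kidney these genes are known to rise after tubular injury, and their transcripts also accumulate quickly while tissue is taken and handled. The time from removal to freezing is not given in the sources used here, and its part in the levels below was not tested.

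The libraries held 7063158 to 8056929 estimated counts each, and spironolactone replicate 4 held 10932887. At these depths 3 counts, taken as the floor, corresponded to 0.247 to 0.485 CPM (counts scaled to a library total of 1000000, with the trimmed mean of M values over all 16 libraries as the scaling), for counting error only. The study set aside a DOCA and a spironolactone library as outliers without naming them. From the supporting values, which cover replicates 1 to 3, they were inferred to be replicate 4 of DOCA and replicate 4 of spironolactone. Both stayed out of the tests, which used 14 libraries and 14628 genes, and their values are given throughout. None of 13 nephron marker genes fixed for checking the tissue could be paired with an ID, so the label kidney was not checked by markers here. The labels give the libraries as separate samples without naming the rats, so p-values measure the spread between these samples, which may be technical.

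On the TPM scale, which allows for gene length, Jun and Junb were the most abundant members in every group, and ENSRNOG00000008015 the least abundant. In control kidneys the mean level was 29.7 TPM for Jun and 27 TPM for Junb, against 3.99 for Myc, 3 for Atf3, 2.08 for Egr1 and 0.962 for ENSRNOG00000008015. Mean levels in the DOCA group were 84.7 TPM for Jun, 76.4 for Junb, 27.2 for Atf3, 23.6 for Myc, 12.8 for Egr1 and 4.24 for ENSRNOG00000008015 (n = 3). The order of Myc and Atf3 was thus not the same in both groups. Within the control group the 4 libraries of Jun and Junb lay close together, while those of Egr1, Atf3 and ENSRNOG00000008015 were spread over several-fold.

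**Figure D1:**
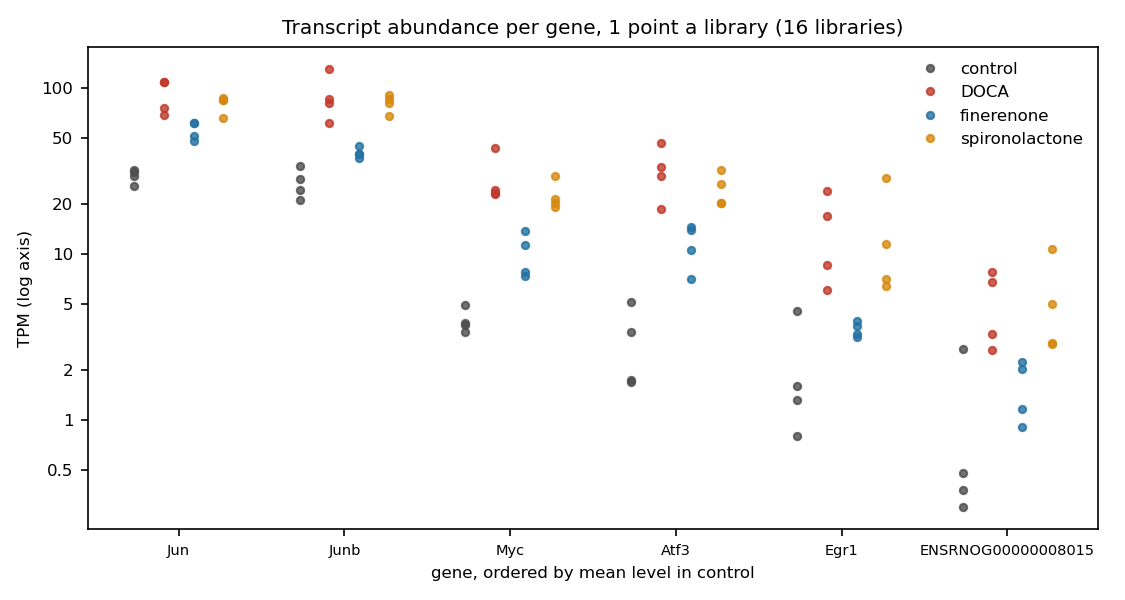
Transcript abundance (TPM, log axis) of the 6 genes in each of the 16 libraries, with genes on the horizontal axis in the order of their mean in control and colors for the 4 groups. Jun and Junb sit above the others, from means of 29.7 and 27 TPM in control, and ENSRNOG00000008015 sits lowest, at a control mean of 0.962 TPM.

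Across the groups, the mean level of all 6 members was lowest in control and second lowest with finerenone, and it was higher in the DOCA and spironolactone groups. In DOCA vs control, 5 of 6 members were called higher in edgeR (adjusted p under 0.05 and a log2 fold change of 0.5 or more either way), where 15.4% of all genes tested were called higher. With spironolactone, all 6 were called higher than control, against 14.7% of genes. With finerenone, 3 of 6 were called higher than control, against 3.33% of genes. Finerenone vs DOCA gave 2 members called lower, against 7.70% of genes, and finerenone vs spironolactone gave the same count, against 6.84% of genes. Among the 1996 tested genes with a paired symbol, to which 5 of the members belong, 33.5% were called lower in that last comparison, so the members' share of 2 in 6 was near that of genes named in the same way. No member was called between spironolactone and DOCA, and the share of all genes called either way was 0%. Comparisons that share the DOCA or the control libraries are not independent of each other, and nothing is read from the counts that use either of these groups, since the 5 symbols came from a table of genes called between them.

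**Figure D2:**
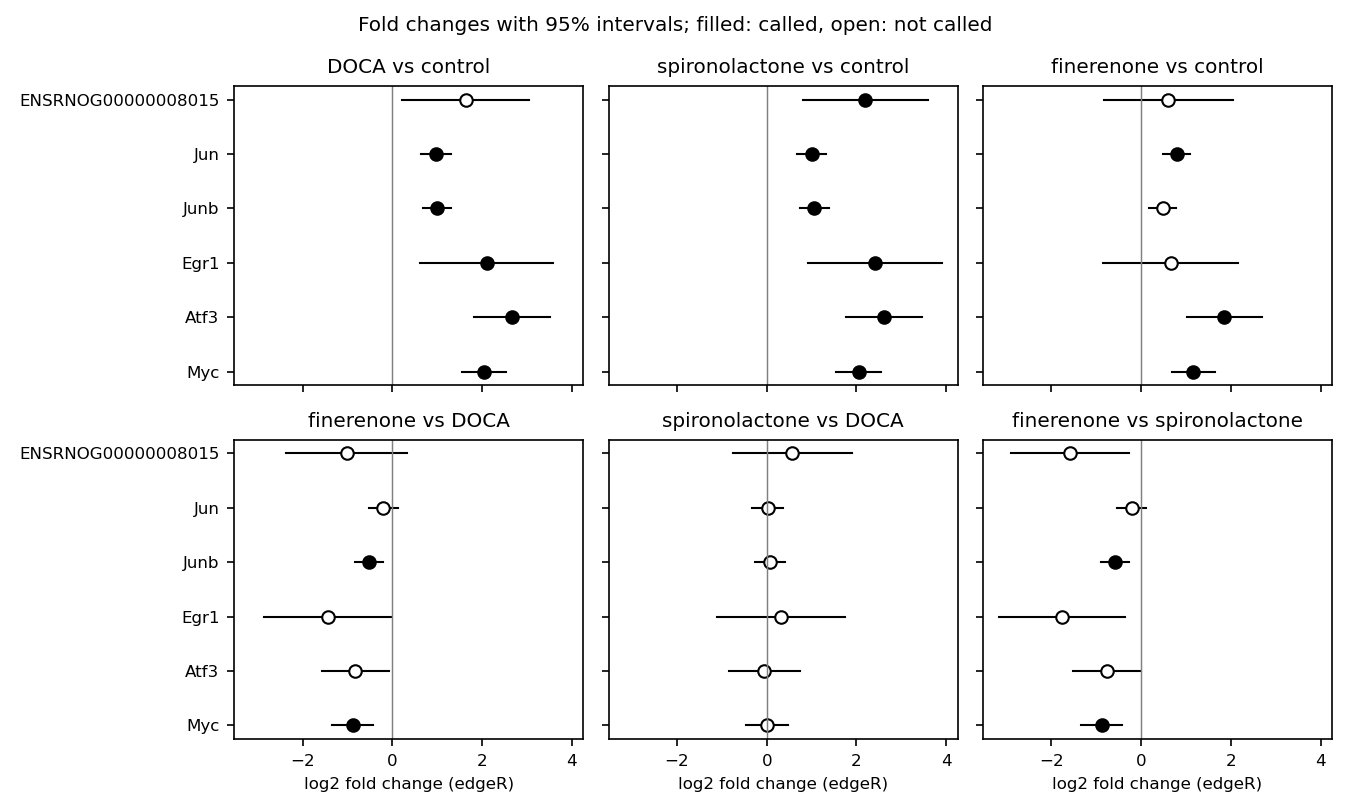
Log2 fold changes from edgeR (horizontal axis) with 95% intervals for the 6 genes (vertical axis) in the 6 comparisons, with filled points for called genes. All points lie above 0 in the 3 comparisons with control, all lie below 0 where finerenone is compared with DOCA or spironolactone, and all intervals span 0 in spironolactone vs DOCA.

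Jun, the DNA-binding AP-1 subunit that forms dimers with itself and with Fos proteins, was higher in DOCA than in control kidneys, and neither drug gave a called difference from DOCA. Its level was 112, 110, 79.9 and 98 CPM in the control replicates 1 to 4, and 246, 171, 174 and 278 CPM in the DOCA replicates. It was 186, 208, 133 and 161 CPM with finerenone, and 201, 192, 204 and 157 CPM with spironolactone. Every library of the 3 DOCA-treated groups was above every control library, and the finerenone libraries overlapped those of the DOCA and spironolactone groups. In control the mean was 99.7 ± 14.5 CPM (SD, n = 4), and in the DOCA group it was 197 ± 42.3 CPM (SD, n = 3), 1.97-fold higher, or 0.98 ± 0.16 on the log2 scale (± SE here and below, edgeR adjusted p = 0.000138). Finerenone, at 172 ± 32.4 CPM (SD, n = 4), was still above control, with a log2 fold change of 0.79 ± 0.15 (edgeR adjusted p = 0.00533). Against DOCA the finerenone difference was -0.2 on the log2 scale, with a 95% interval from -0.52 to 0.13 (edgeR adjusted p = 0.401). On the scale of log2(TPM + 1), with limma, the same difference was -0.58 and called (adjusted p = 0.00655), where the median of all genes stood at -0.34. In spironolactone kidneys the mean was 199 ± 6.14 CPM (SD, n = 3), a log2 fold change of 1 ± 0.16 over control (edgeR adjusted p = 0.00013), and it differed from DOCA by 0.02 with an interval from -0.33 to 0.37.

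Junb, another Jun protein and a weaker transcriptional activator than Jun in many settings, was higher with DOCA and lower with finerenone than with DOCA or spironolactone. Its level was 47, 39.1, 47.5 and 60.5 CPM in control, and 100, 114, 76.7 and 180 CPM with DOCA. Finerenone libraries held 61.9, 72.8, 59.8 and 76.5 CPM, and spironolactone libraries 105, 112, 87.1 and 109 CPM. All 4 finerenone libraries were below all DOCA and all spironolactone libraries, although finerenone replicate 4 and DOCA replicate 3 nearly touched. The control mean of 48.5 ± 8.86 CPM (SD, n = 4) and the DOCA mean of 96.8 ± 18.7 CPM (SD, n = 3) were apart by a log2 fold change of 1 ± 0.15 (edgeR adjusted p = 8.19e-05). With finerenone it was 67.8 ± 8.16 CPM (SD, n = 4), lower than with DOCA by a log2 fold change of -0.52 ± 0.15 (edgeR adjusted p = 0.0215). This call was lost when DOCA replicate 1 (-0.49, adjusted p = 0.0716), DOCA replicate 2 (-0.38, adjusted p = 0.116), finerenone replicate 1 (-0.47, adjusted p = 0.0541) or finerenone replicate 3 (-0.43, adjusted p = 0.0689) was left out of the edgeR fit. It was also lost with libraries summed by the first number of their code (-0.43, edgeR adjusted p = 0.195) and at a fold threshold of 1 on the log2 scale. The rise over control with finerenone, 0.48 ± 0.14, missed the thresholds (edgeR adjusted p = 0.0585), and it passed them without control replicate 4 (0.6, adjusted p = 0.013) or finerenone replicate 3 (0.57, adjusted p = 0.0462). Spironolactone kidneys held 101 ± 12.8 CPM (SD, n = 3), higher than control by 1.06 ± 0.15 on the log2 scale (edgeR adjusted p = 4.94e-05) and within 0.07 of DOCA, with an interval from -0.27 to 0.4.

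The promoters of Junb and Egr1 are shown because these are the members with an entry in the RefSeq promoter table used here. RefSeq gives that of Junb in the rat assembly GRCr8 at chr19:40080876-40081125 on the plus strand, the 250 bases before the transcription start, and capitals mark the core of a cAMP response element, TGACG on either strand, to which ATF and Jun dimers can bind.
Junb: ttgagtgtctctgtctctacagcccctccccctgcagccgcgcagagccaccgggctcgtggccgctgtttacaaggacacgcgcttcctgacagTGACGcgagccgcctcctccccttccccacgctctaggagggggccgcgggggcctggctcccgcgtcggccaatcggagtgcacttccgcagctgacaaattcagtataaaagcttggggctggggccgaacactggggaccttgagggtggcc
The core lies 155 bases before the start, and a TATA box (TATAAA) lies 49 bases before it. Of 33469 rat promoter windows of this length in the table, 18.2% hold the core and 12.9% hold a TATA box. Neither an AP-1 site (TGANTCA, in 6.34% of windows) nor a site for EGR proteins (GCGNGGGCG, in 4.29%) was found on either strand, which says only that these letters are not in this window.

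Atf3, a stress-induced ATF factor that pairs with Jun proteins and often represses its targets, had the highest fold change of the members in DOCA vs control. Its level was 6.92, 3.33, 3.12 and 9.87 CPM in control, and 43.9, 41.9, 24.8 and 69.3 CPM with DOCA. With finerenone the 4 libraries gave 12.4, 27.7, 16.8 and 26.7 CPM, and with spironolactone 28.3, 42.1, 36 and 27.7 CPM. All libraries of the DOCA, finerenone and spironolactone groups were above all control libraries, and 2 of the 4 finerenone libraries reached above the lowest DOCA library. Atf3 was 5.81 ± 3.22 CPM (SD, n = 4) in control and 36.9 ± 10.5 CPM (SD, n = 3) with DOCA, 6.38-fold higher, or 2.67 ± 0.39 on the log2 scale (edgeR adjusted p = 0.000193). Finerenone kidneys held 20.9 ± 7.51 CPM (SD, n = 4), a rise of 1.85 ± 0.38 over control (edgeR adjusted p = 0.0157) that missed the threshold without finerenone replicate 2 (1.69, adjusted p = 0.0503). The finerenone level was -0.82 ± 0.35 against DOCA (95% interval -1.57 to -0.07, edgeR adjusted p = 0.116), and it was called under 7 of 18 alternatives, among them limma-voom on the same 14 libraries (-0.85, adjusted p = 0.0359), scaling by library size alone (-1.08, adjusted p = 0.0283) and all 16 libraries (-1.11, adjusted p = 0.0308). In the spironolactone group Atf3 was 35.5 ± 6.91 CPM (SD, n = 3), 2.62 ± 0.39 above control (edgeR adjusted p = 0.000241) and -0.05 from DOCA, with an interval from -0.84 to 0.74.

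Egr1 is a zinc finger factor that growth factor and stress kinases induce through serum response elements. It was higher than control in the DOCA and spironolactone groups but varied widely between libraries of the same group. The control libraries held 5.82, 4.59, 2.55 and 15.4 CPM, and the DOCA libraries 54.5, 21.5, 14.2 and 43.9 CPM. It was 9.65, 13.6, 10.5 and 10.6 CPM with finerenone, and 69.4, 26.3, 17 and 15.5 CPM with spironolactone. Control replicate 4 reached into the DOCA range and above all finerenone libraries, whereas the 4 finerenone libraries were close together and below all DOCA and spironolactone libraries. The mean was 7.08 ± 5.69 CPM (SD, n = 4) in control and 30 ± 21.5 CPM (SD, n = 3) with DOCA, a log2 fold change of 2.1 ± 0.67 with a 95% interval from 0.61 to 3.59 (edgeR adjusted p = 0.0317). That call was lost without control replicate 1 (2.02, adjusted p = 0.0761), control replicate 2 (1.94, adjusted p = 0.0769), control replicate 3 (1.81, adjusted p = 0.0751) or DOCA replicate 1 (1.34, adjusted p = 0.161). Spironolactone kidneys held 37.6 ± 28 CPM (SD, n = 3), with a log2 fold change of 2.42 ± 0.67 over control (edgeR adjusted p = 0.0171), and without spironolactone replicate 1 the value was 1.63 and missed the threshold (adjusted p = 0.083). Finerenone kidneys, at 11.1 ± 1.72 CPM (SD, n = 4), had log2 fold changes of 0.66 over control (95% interval -0.84 to 2.16, edgeR adjusted p = 0.654) and -1.44 against DOCA (interval -2.86 to -0.02, edgeR adjusted p = 0.141). The difference between spironolactone and DOCA was 0.32, with an interval from -1.11 to 1.75, so that a change of more than 2-fold either way could not be told from none at this spread.

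The Egr1 promoter, which carries the serum response element letters for which the gene is known, lies in GRCr8 at chr18:26736828-26737077 on the plus strand (RefSeq, 250 bases before the start). Capitals mark matches to the CArG box, the core that serum response factor binds, and to the cAMP response element core, TGACG or its reverse complement CGTCA.
Egr1: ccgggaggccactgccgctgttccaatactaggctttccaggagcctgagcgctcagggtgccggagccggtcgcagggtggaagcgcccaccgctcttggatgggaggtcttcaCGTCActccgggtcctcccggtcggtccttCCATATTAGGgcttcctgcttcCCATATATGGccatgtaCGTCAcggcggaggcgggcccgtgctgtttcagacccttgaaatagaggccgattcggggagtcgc
CArG boxes start 105 and 83 bases before the transcription start, and cAMP response element cores start 135 and 66 bases before it. A CArG box is in 1.5% of the 33469 promoter windows, and the Junb window holds none. As for Junb, no AP-1 site and no EGR site was found, and these matches are descriptions of the letters, not sites shown to be bound. For Jun, Atf3 and Myc the table had no entry.

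Myc, a basic helix-loop-helix zipper factor that drives growth and proliferation and is induced as an early gene by mitogens, gave the clearest separation of the groups. The level in control was 9.12, 6.81, 8.23 and 7.6 CPM, and in the DOCA libraries 29.8, 37.5, 31.1 and 66.5 CPM. Finerenone libraries held 10.4, 22.7, 14.1 and 24.2 CPM, and spironolactone libraries 30.7, 38.4, 29.4 and 27.5 CPM. All finerenone libraries were above all control libraries and below all DOCA and spironolactone libraries. Myc averaged 7.94 ± 0.978 CPM (SD, n = 4) without and 32.8 ± 4.13 CPM (SD, n = 3) with DOCA, 4.12-fold higher, or 2.04 ± 0.23 on the log2 scale (edgeR adjusted p = 5.58e-06). With finerenone it was 17.9 ± 6.68 CPM (SD, n = 4), which was 1.16 ± 0.23 above control (edgeR adjusted p = 0.00671) and lower than DOCA by a log2 fold change of -0.88 ± 0.22 (edgeR adjusted p = 0.0091). The latter call held when each library was left out in turn, with log2 fold changes from -1.06 to -0.69 (edgeR adjusted p from 0.00305 to 0.0461). That call was lost with libraries summed by the first number of their code (-0.85, edgeR adjusted p = 0.0537). At a fold threshold of 1 on the log2 scale it was lost as well. The call of finerenone over control was lost with DOCA replicate 4 added to the fit (1.16, edgeR adjusted p = 0.0527). With all 16 libraries that call over control was kept (1.16, edgeR adjusted p = 0.043). Spironolactone kidneys held 32.8 ± 4.89 CPM (SD, n = 3), 2.05 ± 0.23 above control (edgeR adjusted p = 6.55e-06), and the log2 fold change against DOCA was 0, with an interval from -0.47 to 0.48.

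ENSRNOG00000008015 had the lowest counts of the members and the widest relative spread in control. Its estimated counts, rounded, were 4, 3, 5 and 26 in the control replicates 1 to 4, or 0.629, 0.475, 0.709 and 4.21 CPM, and the first 3 of these were close to the floor of 3 counts. DOCA libraries held 7.24, 3.07, 3.59 and 9.48 CPM, finerenone libraries 3.17, 1.44, 1.53 and 3.03 CPM, and spironolactone libraries 12, 5.35, 3.25 and 3.21 CPM. Control replicate 4 was above the other controls, above all finerenone libraries, and above 2 DOCA and 2 spironolactone libraries. The mean was 1.5 ± 1.8 CPM (SD, n = 4) in control, 4.64 ± 2.27 (n = 3) with DOCA, 2.29 ± 0.933 (n = 4) with finerenone and 6.92 ± 4.65 (n = 3) with spironolactone. The DOCA difference from control was 1.64 ± 0.66 on the log2 scale (95% interval 0.22 to 3.05) and missed the threshold (edgeR adjusted p = 0.067). Without control replicate 4 it was 2.9 and called (adjusted p = 0.00111), without spironolactone replicate 1 it was 1.63 and called (adjusted p = 0.0461), and with all 16 libraries it was 1.97 and called (adjusted p = 0.0223). On the same 14 libraries it was also called by DESeq2 (1.63, adjusted p = 0.0301), the edgeR likelihood ratio test (1.62, adjusted p = 0.0398), limma-voom (2.06, adjusted p = 0.0333) and with library size alone (1.98, adjusted p = 0.0237), and in all under 9 of 18 alternatives. Spironolactone was above control by 2.2 ± 0.65 (edgeR adjusted p = 0.0164), a call that was lost without spironolactone replicate 1 (1.53, adjusted p = 0.1). Finerenone gave 0.61 over control (95% interval -0.82 to 2.05, edgeR adjusted p = 0.67) and -1.02 against DOCA (interval -2.36 to 0.32, edgeR adjusted p = 0.272). Spironolactone and DOCA differed by 0.57, with an interval from -0.76 to 1.9.

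**Figure D3:**
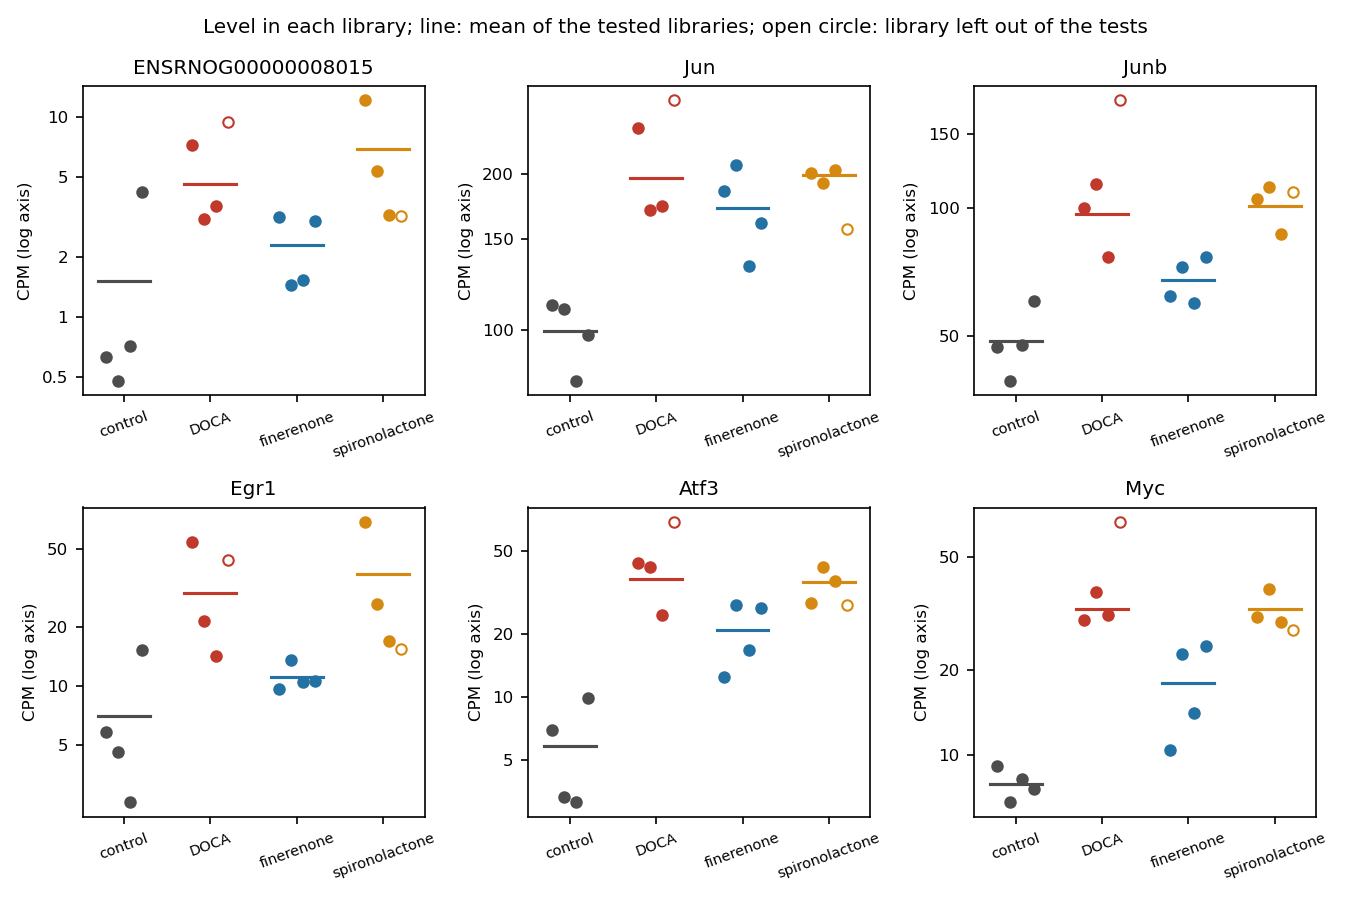
Level of each gene (CPM, log axis) in the 4 groups, with 1 point for each library in the order of replicates 1 to 4, a line at the mean of the libraries tested, and open circles for the 2 libraries left out of the tests. For Myc the control libraries sit at 6.81 to 9.12 CPM, the finerenone libraries at 10.4 to 24.2, and the DOCA and spironolactone libraries from 27.5 up, while for Egr1 and ENSRNOG00000008015 control replicate 4 sits apart at 15.4 and 4.21 CPM.

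Taking the members as a group, the DOCA difference from control had a median log2 fold change of 1.84, beside 0.02 over all genes tested. The named members were already known to differ between DOCA and control. No contrast with all genes in this paragraph is therefore read as a trait of the members. The CPM ranges of the tested libraries did not overlap for 4 of 6 members (Jun, Junb, Atf3 and Myc), and 21.9% of all genes were higher in DOCA with no overlap. Spironolactone vs control gave a median of 2.12, beside 0.02, with no overlap for 5 of 6 members, ENSRNOG00000008015 being the exception, against 20.6% of genes. For finerenone vs control the median was 0.72, beside -0.01, and Jun, Atf3 and Myc, 3 of 6, did not overlap, against 6.19% of genes. These values depend on scaling, since in DOCA vs control the median over all genes tested was 0.02 with the scaling used here, 0.12 with upper quartile scaling, 0.37 with library size alone and 0.42 on log2(TPM + 1). No member changed its direction under any of them in the 5 comparisons other than spironolactone vs DOCA.

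Finerenone and spironolactone were compared in DOCA-treated rats to ask whether the 2 blockers leave different levels of these genes. Finerenone was below spironolactone in the mean of all 6 members, and Junb and Myc passed the test. The log2 fold change was -0.58 ± 0.15 for Junb (edgeR adjusted p = 0.0124) and -0.88 ± 0.22 for Myc (edgeR adjusted p = 0.0101). Without spironolactone replicate 2 both calls were lost (Junb -0.51, adjusted p = 0.0672, and Myc -0.75, adjusted p = 0.06), and without finerenone replicate 3 Junb stood at -0.5 and under the fold threshold before rounding (adjusted p = 0.0455). When DOCA replicate 4 was added to the edgeR fit, both missed the threshold (adjusted p = 0.0985 and 0.0585), and with all 16 libraries both were called (adjusted p = 0.0494 and 0.0467). Both were lost with libraries summed by the first number of their code (Junb -0.53, edgeR adjusted p = 0.147, and Myc -0.84, edgeR adjusted p = 0.0714). Myc was also lost in a fit of these 2 groups alone (-0.88, edgeR adjusted p = 0.0503). Egr1 had the largest difference, -1.76 ± 0.64, with a 95% interval from -3.17 to -0.35 (edgeR adjusted p = 0.0843). For ENSRNOG00000008015 it was -1.59 ± 0.61, with an interval from -2.9 to -0.28 (edgeR adjusted p = 0.0897), and it was called without control replicate 4 (-1.59, adjusted p = 0.0177). Atf3 gave -0.77 ± 0.35 (interval -1.52 to -0.01, edgeR adjusted p = 0.153) and Jun -0.21 ± 0.15 (interval -0.54 to 0.12, edgeR adjusted p = 0.379). Egr1 and ENSRNOG00000008015 were each called under 6 of 18 alternatives and Atf3 under 5. In the tested libraries the CPM ranges did not overlap for 5 of 6 members, Jun being the exception. In the same libraries 14.3% of all genes were lower with finerenone with no overlap. With all 16 libraries the count was 4 of 6, and no share over all genes was taken for that set. The median log2 fold change of the members was -0.83, beside -0.04 over all genes and -0.48 over those with a paired symbol.

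Against the DOCA group, finerenone gave a median log2 fold change of -0.85 over the members, beside -0.03 over all genes, and the ranges of Junb, Egr1 and Myc, 3 of 6, did not overlap, against 16.5% of genes. Nothing is read from this contrast either, since the named members were already known to differ between DOCA and control. Spironolactone gave a median of 0.04, beside 0.01 over all genes. In that comparison 0 members had an unadjusted p under 0.05 in edgeR. Of all 14628 genes, 578 had an unadjusted p under 0.05 in edgeR, 0 were called, and DESeq2 called 11 and limma-voom 0 by the same thresholds. The 95% intervals for Jun and Junb, within 0.4 on the log2 scale either way, were narrow, whereas those for Egr1 and ENSRNOG00000008015 reached 1.75 and 1.9, so the comparison does not show that spironolactone left these levels alone.

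The members differed in how far libraries of the same group lay apart. The standard deviation of log2 CPM within groups, over the 14 tested libraries, was 0.88 for ENSRNOG00000008015 and 0.86 for Egr1, larger than in 96.7% and 96.3% of all genes tested. It was 0.57 for Atf3 (85.7% of genes lower) and 0.35 for Myc (67.1%). Jun, at 0.24, and Junb, at 0.23, were close to the median of all genes, 0.24. The highest control library was 8.85-fold above the lowest for ENSRNOG00000008015 and 6.02-fold for Egr1, against 1.55-fold for Junb, 1.4-fold for Jun and 1.34-fold for Myc. Finerenone showed a different order, with a highest-to-lowest ratio of 1.41 for Egr1 and 2.34 for Myc.

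Libraries that were high for a member were often high for others. Control replicate 4 held the highest control level of 4 of 6 members (ENSRNOG00000008015, Junb, Egr1 and Atf3), while Jun and Myc were highest in control replicate 1. DOCA replicate 4, left out of the tests, held the highest DOCA level of 5 of 6, with Egr1 highest in DOCA replicate 1. Spironolactone replicate 1 was highest for ENSRNOG00000008015 and Egr1, and replicate 4, also left out, was lowest for 5 of 6. Finerenone replicate 1 was lowest for Egr1, Atf3 and Myc and highest for ENSRNOG00000008015. Over all 16 libraries, which share the differences between groups, Pearson's r between members on log2 CPM was 0.722 to 0.939 over 15 pairs, with ENSRNOG00000008015 and Egr1 at 0.922, Atf3 and Myc at 0.939, and Junb and Myc at 0.938.

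**Figure D4:**
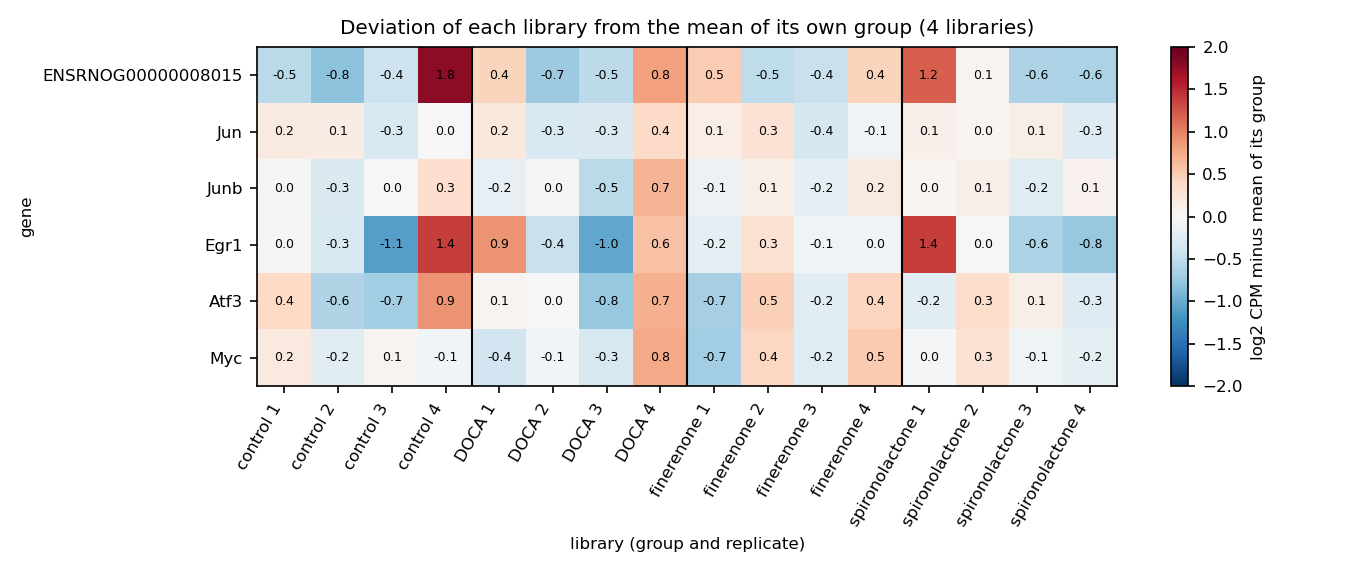
Deviation of log2 CPM from the mean of the library's own group of 4, for the 6 genes (rows) in the 16 libraries (columns), with red above and blue below the mean. Control replicate 4 stands out for ENSRNOG00000008015, Egr1 and Atf3, DOCA replicate 4 is above its group mean for all 6 genes, and spironolactone replicate 1 stands out for ENSRNOG00000008015 and Egr1.

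Among 1991 tested genes with a paired symbol, all named through the table of genes called between DOCA and control, the closest to each member across the 16 libraries were listed by Pearson's r on log2 CPM, as a description. ENSRNOG00000008015 was closest to Plin2 (0.928), a lipid droplet coat protein, and Fgl2 (0.917). Jun was closest to Btg2 (0.928), an antiproliferative early gene, and Klhl5 (0.919). Egr1 was also closest to Btg2 (0.916), then to Gbp2 (0.896), an interferon-induced GTPase. Junb was closest to H3f3a (0.973), a histone gene, and Tagln2 (0.962). Atf3 was closest to Cerk (0.981), a ceramide kinase, and Pdgfb (0.973), a growth factor for mesenchymal cells. Myc was closest to Icam1 (0.983), a leukocyte adhesion molecule, and Col18a1 (0.98), a basement membrane collagen.

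Other genes of the pathway were read from lists and compared only between finerenone and spironolactone, because their symbols, too, came from a table of genes called between DOCA and control. Only 1 of 13 other AP-1 subunits and dimer partners, 13 of 31 other immediate early genes and 2 of 11 upstream kinases and serum response partners could be paired. Maff, a small Maf protein of the leucine zipper class, was lower with finerenone, at 7.55 ± 0.636 CPM (SD, n = 4) against 14.2 ± 1.65 CPM (SD, n = 3), a log2 fold change of -0.91 ± 0.19 (edgeR adjusted p = 0.00321). Of the 13 immediate early genes, 4 were called lower, 0 higher and 9 did not pass, with a median of -0.43. Over the 1996 genes with a paired symbol 33.5% were called lower and the median was -0.48, so the values of the list were near those of genes named in the same way. The 4 were Klf6 (-0.88 ± 0.19, edgeR adjusted p = 0.00465), a zinc finger factor, Plk2 (-0.92 ± 0.25, edgeR adjusted p = 0.0169), a polo-like kinase, Btg2 (-0.74 ± 0.18, edgeR adjusted p = 0.0101), and Dusp1 (-0.51 ± 0.16, edgeR adjusted p = 0.0347), a phosphatase that switches off stress kinases. Among those that did not pass, Ier2 stood at -0.11 ± 0.17 and Gadd45b at -0.12 ± 0.18. Elk3, an ETS partner of serum response factor, was lower (-0.66 ± 0.12, edgeR adjusted p = 0.000945), and Elk4, a related partner, was at -0.24 ± 0.13 (edgeR adjusted p = 0.206). None of the 9 Myc partners and targets could be paired.

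**Figure D5:**
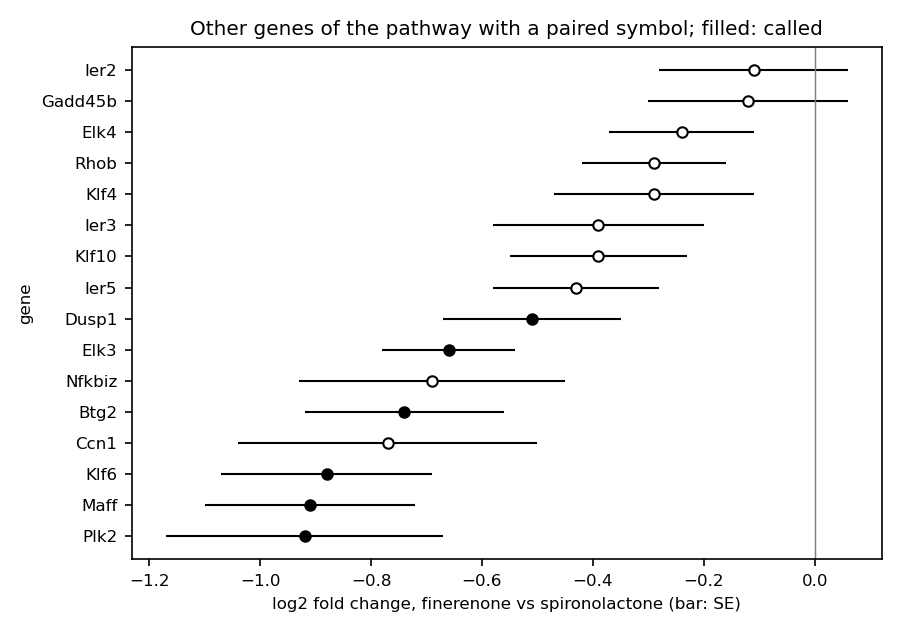
Log2 fold change of finerenone vs spironolactone (horizontal axis, bars are SE) for the 16 listed genes with a paired symbol (vertical axis), with filled points for called genes. All points lie below 0, from -0.92 for Plk2 to -0.11 for Ier2, and 6 of 16 are called.

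Markers of injured tubule, leukocytes and fibroblasts are given as values, since their symbols came from the same table and their difference between control and DOCA was fixed by that choice. The summed level of 6 paired injured tubule markers (Havcr1, Vcam1, Spp1, Il34, Pdgfb and Lcn2) was 174 to 403 TPM in control, 7820 to 20200 with DOCA, 1350 to 3020 with finerenone and 6110 to 14900 with spironolactone (4 libraries each). For 6 of 9 leukocyte markers that could be paired it was 242 to 403, 827 to 1400, 513 to 579 and 925 to 996 TPM, and for 5 of 5 fibroblast markers 60.3 to 93.3, 314 to 580, 132 to 187 and 267 to 416 TPM, in the same order of groups. The endothelial marker Cdh5, 1 of 4 that could be paired, was 5.63 to 7.31, 10.7 to 13.9, 6.76 to 9.14 and 11.6 to 14.9 TPM. None of these markers was at 0 in all libraries of a group. Between finerenone and spironolactone, 3 of 6 injured tubule, 5 of 6 leukocyte and 4 of 5 fibroblast markers were called lower with finerenone, and 0 of 1 endothelial, beside 6.84% of all genes and 33.5% of genes with a paired symbol. In these whole-kidney samples a change in the number of cells of a type and a change in RNA per cell cannot be told apart, and the part of cell composition in the members' levels was not tested.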

How the data were processed

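Per the labels the RNA was polyadenylated. Per the study's methods, reads of strand-specific libraries were checked with FASTQC, trimmed, aligned to rn6 (Rnor_6.0), and counted per gene by RSEM, and the submitters' processing notes name Trim Galore 0.4.5 and STAR 2.7.3a. The annotation and the RSEM version are not given in the sources used here. The deposited estimated counts (expected counts of RSEM, 3.14% not whole) were rounded. The deposited TPM correct for gene length, with a fixed total per library, as the authors made them. Genes with close copies can lose or share reads in such counting.

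Groups and replicate numbers came from the labels. The 6 members and all lists were chosen with earlier results of these data known. Symbols were paired for 1996 of 1997 rows of the study's shortened gene table, and the RefSeq table (GRCr8) held 0 Ensembl IDs. That table also holds the authors' fold changes and p-values, which were not used. Named genes were the members, the genes of the lists, and the 2 paired genes with the highest r to each member.

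Genes with more than 4 counts in 3 or more libraries were tested in 1 edgeR 4.0.16 fit (R 4.3.3, TMM, robust quasi-likelihood F test) of 14 libraries in 4 groups, with Benjamini-Hochberg adjustment over all 14628 genes. The log2 CPM used a prior count of 2. SE were computed from the fold change and F. Total counts were 7063158 to 10932887 per library. All 24 pairs of libraries of the same group differed beyond sampling noise (chi-square per gene 4.71 to 42.16, where sampling gives 1). Fits were tested on simulated data. Alternatives covered scaling, filters, DESeq2 1.42.0, limma 3.58.1 (voom, and TPM with pseudocounts of 1 and 0.1), library sets and thresholds. Each first number of a library code occurs in 1 group only, so it cannot be told apart from the groups in comparisons between them. Within a group some libraries share a number, and its meaning is not given. With finerenone, Myc was 10.4 and 14.1 CPM in the libraries of number 2 and 22.7 and 24.2 CPM in those of number 3. Jun, at 186 and 133 against 208 and 161 CPM, overlapped between them. The tests took the libraries as independent, which was not tested.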

Additional observations from a re-analysis of the deposited data

Results flagged for a closer look

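ENSRNOG00000008015 was 4.21 CPM in control replicate 4, against 0.475 to 0.709 CPM in the other 3 control libraries, and the gap to the nearest of them was 0.937 of the range of the group. It was the only one of 24 sets of 4 libraries (6 genes in 4 groups) with a gap past Dixon's critical value, and chance gives such a gap in about 1 of 20 sets.

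Junb and Myc differed between finerenone-treated and spironolactone-treated DOCA rats when the difference itself was tested, with log2 fold changes of -0.58 and -0.88 (edgeR adjusted p = 0.0124 and 0.0101).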

How the results depend on the processing

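Over 36 fold changes (6 genes, 6 comparisons) and all alternatives, 1033 of 1152 values kept their direction and side of the threshold, 49 gained a call, 37 lost one and 33 changed sign, all 33 in spironolactone vs DOCA. The count of members called in DOCA vs control, 5 (26.7% of all genes called either way), became 3 (12%) with the fold threshold raised to a log2 of 1. Under the other alternatives it ran from 4 to 6 (20.2% to 45.4% of all genes). In finerenone vs DOCA the count of 2 (13.7% of all genes) became 5 on either TPM scale (29.5% with a pseudocount of 1 and 31.1% with 0.1), 4 with a replicate block (13.4%), and 0 at the raised fold threshold (4.4%) or with libraries summed by the first number of their code (7.95%). In finerenone vs spironolactone the count of 2 (11.4% of all genes) became 5 with library size alone (18%), 4 with DESeq2 (12.6%), 6 on either TPM scale (27.8% and 29.9%), 5 with the replicate block (11%), and 0 at the raised fold threshold (3.29%), with summed libraries (4.61%), or with DOCA replicate 4 added (8.96%, an alternative chosen after seeing the data). The cause was not tested, except that a higher fold threshold can only remove calls and summing leaves fewer samples. Between libraries with the same replicate number the correlations of deviations were -0.075 to 0.142, and 4 of 19 pairs were over 0.1. No null value was taken for these correlations, so they do not settle whether replicate numbers pair the libraries. Leaving out 1 library at a time gave 4 to 6 members called in DOCA vs control (23.4% to 26.9% of all genes). In finerenone vs DOCA it gave 1 to 2 (10.4% to 14.8%), and in spironolactone vs DOCA 0 (0% to 0.0138%). Against control it gave 2 to 4 with finerenone (2.39% to 5.8%) and 4 to 6 with spironolactone (19.9% to 25%). Finerenone vs spironolactone had 0 to 3 (7.24% to 12.5%). In these fits a group left with 2 libraries is assumed to vary like the others.

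In spironolactone vs DOCA, where no fold change was called, the log2 fold change of Myc was -0.01 with upper quartile scaling, -0.02 with library size alone, -0.03 on either TPM scale, -0.39 with all 16 libraries, -0.01 in the fit of the 2 groups, 0 with the replicate block, -0.01 with summed libraries, and -0.33 or -0.06 with DOCA or spironolactone replicate 4 added. Jun was at -0.02 with library size alone, -0.2 with all 16 libraries, and -0.13 or -0.06 with DOCA or spironolactone replicate 4 added. Junb was at -0.18 with all 16 libraries and -0.21 with DOCA replicate 4 added, Egr1 at -0.07 with all 16 libraries, and Atf3 at 0.07 with summed libraries. With 1 library left out the values ran from -0.11 to 1.04 for ENSRNOG00000008015, -0.08 to 0.21 for Jun, -0.08 to 0.2 for Junb, -0.47 to 1.08 for Egr1, -0.27 to 0.09 for Atf3 and -0.13 to 0.11 for Myc. The calls of Egr1 with DOCA and of Egr1 and ENSRNOG00000008015 with spironolactone, each against control, were lost in the fit of the 2 groups (adjusted p = 0.0758, 0.0618 and 0.0564, edgeR). In finerenone vs spironolactone that fit lost the call of Myc (-0.88, edgeR adjusted p = 0.0503). It gained one for ENSRNOG00000008015 there (-1.59, edgeR adjusted p = 0.0378). Low counts limit ENSRNOG00000008015, at 3 to 5 counts in 3 control libraries.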
